A study of Mus musculus with 3 samples.

Results

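Capture Hi-C (CHi-C) contacts of Myc and Mycn were analysed in 3 mouse libraries, named Sample 3, Sample 4 and Sample 5. In CHi-C, fixed chromatin is cut with a restriction enzyme, here HindIII, fragments that lie close together are ligated, and ligation products from chosen regions are enriched. Each product is read from both ends as a di-tag, a pair of mapped positions. A di-tag was assigned to Myc when at least 1 of its ends lay in chr15:61810000-61830000 and to Mycn when at least 1 lay in chr12:12930000-12960000, on build mm9. These windows held 1447 di-tags of the 26794867 in the 3 lists with duplicates removed. In Sample 3 the Myc window had 457 di-tags and the Mycn window 282, of 9376907 in the library. In Sample 4 the windows had 230 and 131 di-tags of 8596799, and in Sample 5 they had 227 and 120 of 8821161.

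All 3 libraries carry the strain label C57BL/6 and the cell type label embryonic stem cells, with no treatment, genotype, age or time. The source label is embryonic stem cells for Samples 4 and 5 but foetal liver cells for Sample 3, while the study's text gives embryonic stem cells for all of them. Di-tags measure no expression, so the labels could not be set against marker genes, and Sample 3 is called by its number. The comparison of Sample 3 with Samples 4 and 5 is therefore between libraries whose labels disagree, with 1 library on one side, and whether the libraries are biological or technical replicates is not stated. With 1 library against 2, an exact permutation test over libraries cannot give a p-value below 0.333.

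Myc and Mycn encode related transcription factors that bind DNA as dimers with Max and drive growth and division. Mycn is best known for its role in embryonic and neural progenitors, and Myc is used in most dividing tissues, blood and stem cells included. The Myc gene lies at the edge of a long stretch of DNA with few coding genes that holds distal enhancers for many tissues, and enhancers for blood cells have been placed far downstream of it. In the RefSeq gene order of GRCm38.p6, Pvt1, a long non-coding RNA gene, is the next gene on the side of Myc with higher coordinates, and Gsdmc, a gasdermin gene, is the next protein-coding gene on that side. Ddx1, an RNA helicase gene, and Nbas are the next protein-coding genes on the higher side of Mycn, and Cyria is the next on its lower side. That table is of another build than the di-tags, so it was used for gene order only and partner bins are not assigned to genes.

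The Mycn promoter is shown as a reference sequence of the gene. It was not placed on mm9 and the captured fragments were not at hand, so whether contacts were read from it was not tested. The sequence comes from RefSeq on GRCm38.p6 and covers the 250 bases before the gene start, chr12:12941837-12942086 on the minus strand. These coordinates are of that build and cannot be set against the mm9 window. Matches to TTTGGCGC, letters bound by E2F cell cycle factors, are in capitals.
Mycn promoter: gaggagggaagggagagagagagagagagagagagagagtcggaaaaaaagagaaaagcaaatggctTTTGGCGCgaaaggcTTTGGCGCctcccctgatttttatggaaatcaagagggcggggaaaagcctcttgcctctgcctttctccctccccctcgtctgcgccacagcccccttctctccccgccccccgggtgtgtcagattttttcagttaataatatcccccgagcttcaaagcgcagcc
The 300 bases from 250 before to 50 after the start held 2 matches to TTTGGCGC, searched on both strands, and 0.514% of the 32851 mouse promoters of this length held at least 1. They held no AAGCTT, the site cut by HindIII, which 7.45% of the promoters held.

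Sample 3 stood apart from Samples 4 and 5 over the whole genome. Di-tags joining positions over 3 Mb apart on 1 chromosome made up 24.9% of Sample 3, 8.37% of Sample 4 and 7.52% of Sample 5. Those joining different chromosomes (trans) made up 52.0%, 67.4% and 71.6%, and those within 3 Mb 23.1%, 24.2% and 20.9%. Among the di-tags within 3 Mb, 20.6% spanned 1 to 3 Mb in Sample 3, against 8.07% and 7.72%. Each di-tag with duplicates removed stood for 7.24, 5.72 and 5.20 copies in the full lists. Every comparison of Sample 3 with the others carries these library-wide differences.

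Both windows gave more di-tags in Sample 3 than in either other library. The Myc window had 48.7 di-tags per 1000000 in Sample 3 (exact Poisson 95% interval 44.4 to 53.4), 26.8 in Sample 4 (23.4 to 30.4) and 25.7 in Sample 5 (22.5 to 29.3). The Mycn window had 30.1 di-tags per 1000000 in Sample 3 (26.7 to 33.8), 15.2 in Sample 4 (12.7 to 18.1) and 13.6 in Sample 5 (11.3 to 16.3). For each gene the interval of Sample 3 did not overlap those of Samples 4 and 5, which overlapped each other. These intervals, like all others given for single libraries, cover counting error only.

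Di-tag ends were then tested in all 50 kb units of the genome, with the windows as units of their own. The Myc window was 1.06 log2 units higher in Sample 3 (SE 0.12, adjusted p = 3.57e-16, limma) and the Mycn window 1.21 log2 units higher (SE 0.14, adjusted p = 4.76e-16, limma). Over the genome, 23.8% of 50723 units were called higher in Sample 3, so a call in that direction was common. Among the tenth of units with most ends, which held neither window, 58.7% were called higher. The log2 difference of Myc was above that of 99.1% of the units and that of Mycn above 99.5%. The windows span 20 and 30 kb, so these ranks are among units of another size. With the windows widened by 10 kb on both sides the differences were 0.81 for Myc and 0.49 for Mycn, the latter above only 87.5% of the units. The size of the Mycn difference thus depended on where the window ended.

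The ends were concentrated in few places inside the windows. Of the 1 kb pieces, 9 of 20 in the Myc window and 23 of 30 in the Mycn window held no end in any library. The fullest piece of Myc, chr15:61815000-61815999, had 230, 109 and 106 ends in Samples 3, 4 and 5, which is 48.4%, 45.0% and 45.1% of the ends in the window. In the fullest piece of Mycn, chr12:12949000-12949999, there were 186, 69 and 69 ends, or 64.4%, 51.1% and 55.2%. Both pieces had more ends in Sample 3, by 1.15 log2 units for Myc (SE 0.19, adjusted p = 2.68e-07, limma over all pieces) and by 1.48 for Mycn (SE 0.21, adjusted p = 1.50e-09), where 4.58% of 774496 pieces, and 21.4% of the tenth of pieces with most ends, were called higher in Sample 3. Among pieces of this same size, the difference of the Myc piece was above that of 94.3% and that of the Mycn piece above 97.3%. Within the tenth of pieces with most ends these ranks were 93.1% and 97.2%. A piece outside the Mycn window, chr12:12913000-12913999, showed no such shift. It held 238, 245 and 240 ends, a difference of 0.032 log2 units (95% interval -0.29 to 0.36, adjusted p = 0.946, limma). These pieces were chosen for their number of ends, and the last one after its values were seen.

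**Figure D1:**
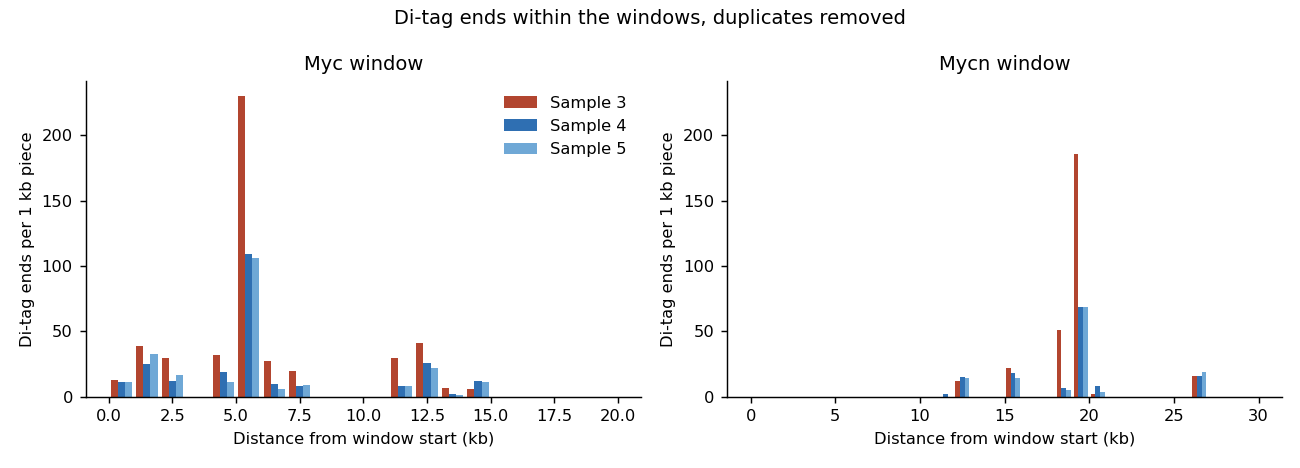
Number of di-tag ends (vertical axis) in each 1 kb piece of the Myc window (left) and the Mycn window (right), by distance from the window start in kb, with 1 bar per library. The tallest bars are the Myc piece with 230, 109 and 106 ends and the Mycn piece with 186, 69 and 69 ends in Samples 3, 4 and 5, and most other pieces hold few ends or none.

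A di-tag with 1 end in a window has a partner, the end outside it. Partners numbered 439, 218 and 219 for Myc in Samples 3, 4 and 5, and 275, 127 and 115 for Mycn, after leaving out the few di-tags with both ends inside. Within 3 Mb lay 74 Myc partners in Sample 3 (16.9%, exact Clopper-Pearson 95% interval 13.5 to 20.7%), 57 in Sample 4 (26.1%, 20.4 to 32.5%) and 47 in Sample 5 (21.5%, 16.2 to 27.5%). For Mycn, 52 partners lay within 3 Mb in Sample 3 (18.9%, 14.5 to 24.0%), 40 in Sample 4 (31.5%, 23.5 to 40.3%) and 31 in Sample 5 (27.0%, 19.1 to 36.0%). Sample 3 had the lowest share for each gene. For Mycn this held in its fullest piece (17.2%, 40.6% and 33.3% in Samples 3, 4 and 5) and not in the rest of the window (26.6%, 25.8% and 24.0%). Unlike the window shares, those of the fullest piece also count di-tags that join it to the rest of the window. The difference from Sample 4 passed the threshold for both genes (adjusted p = 0.0385 in each case, two-sided Fisher's exact test, 27 tests), and the difference from Sample 5 did not (adjusted p = 0.372 for Myc and 0.239 for Mycn). With the windows widened by 10 kb on both sides, the Myc shares were 16.0%, 19.4% and 16.8% and the difference from Sample 4 no longer passed (adjusted p = 0.469, Fisher's exact test), while that of Mycn still did (adjusted p = 0.00680). Such a test compares 2 libraries, not 2 conditions.

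Of partners on the gene's own chromosome beyond 3 Mb, Sample 3 had the highest share for each gene. Myc had 126 of them in Sample 3 (28.7%, 24.5 to 33.2%), 16 in Sample 4 (7.34%, 4.25 to 11.6%) and 20 in Sample 5 (9.13%, 5.67 to 13.8%). Mycn had 62 in Sample 3 (22.5%, 17.7 to 27.9%), 18 in Sample 4 (14.2%, 8.62 to 21.5%) and 9 in Sample 5 (7.83%, 3.64 to 14.3%). The share of Myc was higher in Sample 3 than in Sample 4 (adjusted p = 7.83e-10, Fisher's exact test) and than in Sample 5 (adjusted p = 3.54e-08). For Mycn the difference from Sample 5 passed the threshold (adjusted p = 0.00427, Fisher's exact test) and that from Sample 4 did not (adjusted p = 0.220). With the windows widened by 10 kb on both sides, both passed (adjusted p = 1.14e-05 and 0.000588, Fisher's exact test). The shares of all di-tags given above, 24.9%, 8.37% and 7.52%, moved the same way, and their part in the result was not tested. They count every di-tag by the distance between its ends, while the window shares leave out di-tags wholly inside the window. The interval of Myc held the library's own share in Samples 4 and 5 and, in Sample 3, where it ran from 24.5%, also the 24.9% of the library. That of Mycn held it in Samples 3 and 5 but in Sample 4 began at 8.62%, above the library's 8.37%.

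**Figure D2:**
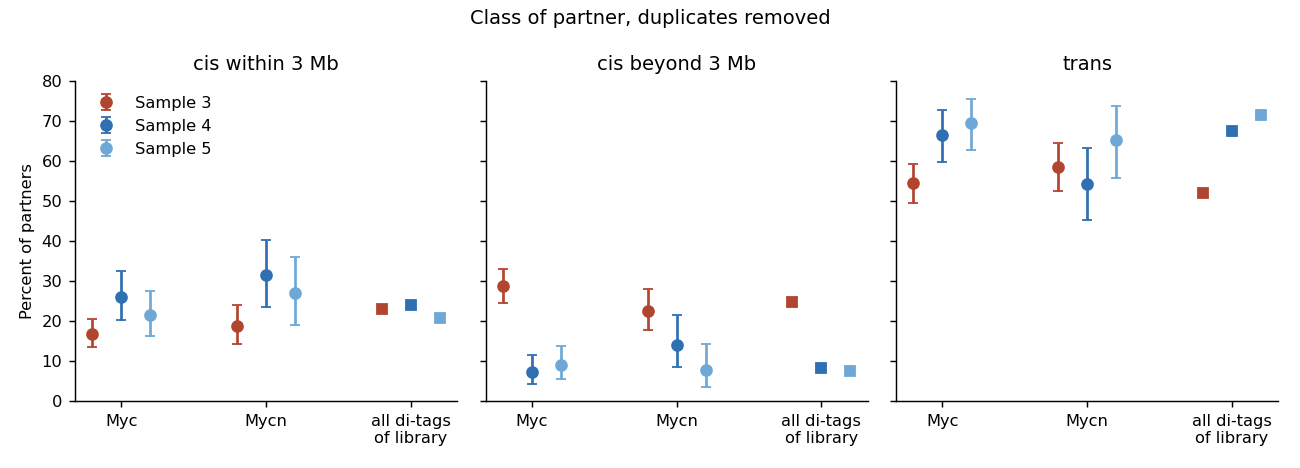
Percent of partners (vertical axis) that lay on the same chromosome within 3 Mb, on the same chromosome beyond 3 Mb, and on another chromosome, for Myc, Mycn and all di-tags of each library. Circles carry exact 95% intervals and use the distance from the window edge, without di-tags wholly inside. Squares are library-wide shares, which use the distance between the ends of every di-tag. Beyond 3 Mb, Sample 3 is at 28.7% for Myc and 22.5% for Mycn, and at 24.9% over the whole library.

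When the ends of each class were tested in a table of their own, scaled to that class, the rise in Sample 3 was not confined to far contacts. Ends of trans di-tags in the Myc window numbered 239, 145 and 152 and were 1.12 log2 units higher in Sample 3 (SE 0.14, adjusted p = 1.51e-14, limma). For Mycn there were 161, 69 and 75 such ends, 1.59 log2 units higher (SE 0.17, adjusted p = 2.34e-18, limma), where 19.8% of units were called higher. With the windows widened by 10 kb on both sides the trans differences were smaller, 0.72 for Myc and 0.85 for Mycn. Ends of di-tags beyond 3 Mb were 1.17 log2 units higher at Myc (SE 0.28, adjusted p = 0.000566), against 11.9% of units called higher, and at Mycn the difference of 0.60 did not pass the threshold (SE 0.34, adjusted p = 0.211). Within 3 Mb the Myc window had 110, 81 and 63 ends, 0.77 log2 units more in Sample 3 (SE 0.24, adjusted p = 0.0123, limma). Here 14.7% of units were called higher. The 66, 48 and 41 ends of Mycn differed by 0.72 (SE 0.29, adjusted p = 0.0614, limma). Near ends include both ends of di-tags wholly inside a window, 18, 12 and 8 for Myc and 7, 4 and 5 for Mycn. In the tenth of units with most ends of a class, which held neither window, 53.9% (trans), 41.5% (beyond 3 Mb) and 51.6% (within 3 Mb) were called higher. With duplicates retained, the far difference of Myc was of a like size at 1.1 log2 units but did not pass the threshold (adjusted p = 0.150, limma), and its near difference was 0.39 (adjusted p = 0.572, limma). Those of Mycn were then -0.11 and -0.090. With the windows widened by 10 kb, the far and near differences were 1.04 and 0.75 for Myc but 0.020 and -0.023 for Mycn.

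The near contacts of Myc lay mostly on 1 side of the gene. On the side with higher coordinates, which is downstream of Myc, were 63 of 74 partners within 3 Mb in Sample 3 (85.1%, 75.0 to 92.3%), 43 of 57 in Sample 4 (75.4%, 62.2 to 85.9%) and 33 of 47 in Sample 5 (70.2%, 55.1 to 82.7%). All 3 intervals lay above 50%, and no pair of libraries differed past the threshold (adjusted p between 0.220 and 0.865, Fisher's exact test). Over the genome, 0.0925% of 22693 bins of 50 kb with at least 30 partners in every library had a share at least as high as that of Myc in each library, and the median bin had 50% in all 3. Counting bins with such a share on either side gave 0.234%. Among partners 50 kb or more from the window, the share was 85.1%, 77.8% and 75.7%. The tilt of Myc was thus also present without the closest partners.

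Mycn leaned the other way along the chromosome. Its higher side held 16 of 52 partners in Sample 3 (30.8%, 18.7 to 45.1%), 13 of 40 in Sample 4 (32.5%, 18.6 to 49.1%) and 10 of 31 in Sample 5 (32.3%, 16.7 to 51.4%). The interval reached past 50% in Sample 5 only. Among partners 50 kb or more from the window the share was 37.2% (23.0 to 53.3%), 31.0% (15.3 to 50.8%) and 33.3% (14.6 to 57.0%), and all 3 intervals then reached past 50%. Of the 22693 bins, 1.24% had a share at least as low in each library. The share of Myc was above that of Mycn in every library (adjusted p = 8.42e-09, 0.000228 and 0.00616 in Samples 3, 4 and 5, Fisher's exact test, 15 tests chosen after seeing the values). Mycn is transcribed from the minus strand, so its lower side is downstream, and that side held 69.2%, 67.5% and 67.7% of its partners. Counted by the direction of transcription, the downstream share of Myc did not differ from that of Mycn past the threshold in any library (adjusted p = 0.139, 0.590 and 1, Fisher's exact test), which does not show that they are equal.

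**Figure D3:**
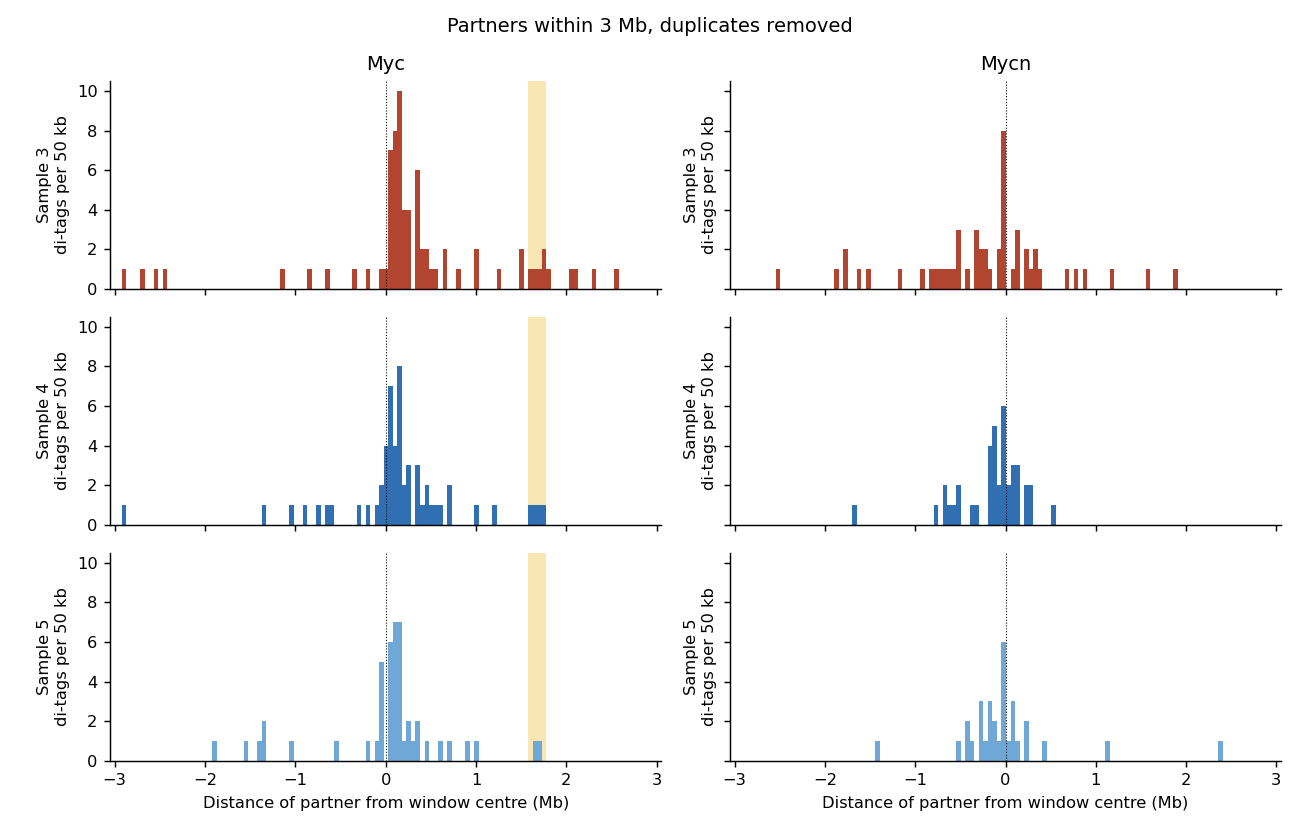
Number of di-tags joining the Myc window (left) or the Mycn window (right) to each 50 kb bin within 3 Mb (vertical axis), by distance from the window centre in Mb, with Samples 3, 4 and 5 from top to bottom. The dotted line marks the window and the shaded band the distal stretch downstream of Myc; the tallest bars of Myc, with 10, 8 and 7 di-tags, stand to the right of its window.

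Most of the near contacts of Myc fell within 1 Mb. In Sample 3, 7 of the 74 partners lay under 50 kb from the window edge, 24 at 50 to 200 kb, 23 at 200 kb to 1 Mb and 20 at 1 to 3 Mb. In Sample 4 the same distances held 12, 16, 20 and 9 of 57, and in Sample 5 they held 10, 17, 12 and 8 of 47. The 1 to 3 Mb share was highest in Sample 3, with 27.0% (17.4 to 38.6%) against 15.8% (7.48 to 27.9%) and 17.0% (7.65 to 30.8%), and these intervals overlapped (adjusted p = 0.372 and 0.486, Fisher's exact test). On the higher side, Samples 3, 4 and 5 had 22, 15 and 15 of the 24, 16 and 17 partners at 50 to 200 kb. At 1 to 3 Mb the higher side held 15 of 20, 6 of 9 and 2 of 8. In Samples 4 and 5 these partners were too few to tell whether the tilt of Myc reached that far, and this was not tested.

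Mycn had fewer partners within 3 Mb than Myc in each library. In Sample 3, 9 of the 52 lay under 50 kb, 7 at 50 to 200 kb, 26 at 200 kb to 1 Mb and 10 at 1 to 3 Mb. The counts were 11, 14, 14 and 1 of 40 in Sample 4, and 10, 7, 11 and 3 of 31 in Sample 5. The 1 to 3 Mb share was 19.2% (9.63 to 32.5%), 2.5% (0.063 to 13.2%) and 9.68% (2.04 to 25.8%), and the difference between Samples 3 and 4 missed the threshold after adjustment (p = 0.0205, adjusted p = 0.0923, Fisher's exact test). Library-wide, the share of di-tags within 3 Mb that spanned 1 to 3 Mb was 20.6%, 8.07% and 7.72%, again highest in Sample 3. That share uses the distance between the ends of all such di-tags. The share of a window uses the distance from its edge and leaves out di-tags wholly inside, so the levels are not alike. The part of the library-wide share here was not tested. Between Myc and Mycn the 1 to 3 Mb share differed past the threshold in no library (adjusted p = 0.590, 0.139 and 0.590, Fisher's exact test).

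**Figure D4:**
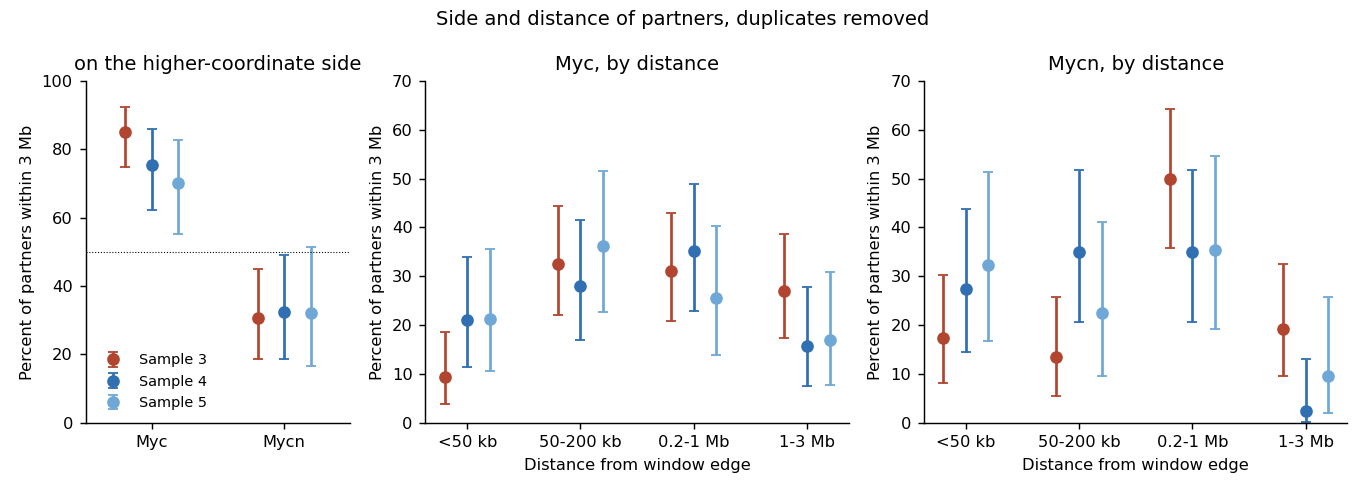
Left, percent of partners within 3 Mb on the higher-coordinate side for Myc and Mycn, with the dotted line at 50%; middle and right, percent of the partners of Myc and Mycn in each distance class from the window edge. Points are single libraries with exact 95% intervals; all Myc points on the left lie above 50%, from 70.2% to 85.1%, and all Mycn points below it, from 30.8% to 32.5%.

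In 50 kb bins, the partners of Myc occupied 51 bins, of which 12 held a di-tag in all 3 libraries. Those 12 bins took 63.5%, 61.4% and 74.5% of the near partners. The bin chr15:61950000-61999999, 120 kb from the window edge, had the most di-tags of those at least 50 kb away, with 10 in Sample 3, 8 in Sample 4 and 7 in Sample 5. Next came chr15:61900000-61949999 at 70 kb with 8, 4 and 7, chr15:62150000-62199999 at 320 kb with 6, 3 and 2, and chr15:62050000-62099999 at 220 kb with 4, 3 and 2. The last of the top 5, chr15:62000000-62049999 at 170 kb, had 4, 2 and 1. All of them lay on the higher side, between 70 and 320 kb from the window, and every one held a di-tag in every library. The bin at 270 kb, between those at 220 and 320 kb, had none in Samples 3 and 4. These counts were not scaled by the ends that each bin had from all di-tags. Such ends numbered 743, 492 and 555 at 61950000, and 161, 170 and 161 at 270 kb. Sample 3 had the most at 61900000 (464, 222 and 255) and 62000000 (517, 295 and 351). It did not at 62050000 (200, 211 and 193) and 62150000 (274, 279 and 315).

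The partners of Mycn occupied 42 bins, of which 7 held a di-tag in all libraries. No bin at least 50 kb away had over 8 di-tags in sum, and the highest counts lay on both sides. On the lower side, chr12:12750000-12799999 had 1, 4 and 3 di-tags in Samples 3, 4 and 5, chr12:12800000-12849999 had 0, 5 and 2, and chr12:12400000-12449999 had 3, 2 and 1. On the higher side, chr12:13050000-13099999 had 3, 3 and 1 and chr12:13150000-13199999 had 2 in each library. Only the bin at 13150000 had the same count throughout, and for the bin at 12800000 the 0 in Sample 3 allows up to 3 di-tags. Their ends from all di-tags differed, with 732, 748 and 763 at 13150000 and 203, 228 and 208 at 12800000. Here too the counts were not scaled by these ends.

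Pairs of 50 kb units were tested over the whole genome, with at least 10 di-tags over the libraries required. Of 79356 pairs, 3.52% were called, in either direction. Only 4 pairs of Myc and 1 of Mycn reached the minimum, and 0 of them were called by limma, with 0 at an unadjusted p under 0.05. The pair of Myc with the bin at 61950000 differed by 0.10 log2 units (95% interval -0.91 to 1.11), that with the bin at 61900000 by 0.29 (-0.83 to 1.41), and that with the bin at 62150000 by 0.80 (-1.03 to 2.63). The closest, at 61850000, had 7, 7 and 6 di-tags and differed by -0.19 (-1.32 to 0.93). Each interval holds a 2-fold change in at least 1 direction, so the depth allows no statement that the contacts were equal. In 200 kb units, where 19.1% of 62952 pairs were called, 5 pairs of Myc and 4 of Mycn were tested and 0 called by limma, with 0 of Myc and 1 of Mycn at an unadjusted p under 0.05. The pair of Mycn with its own 200 kb surroundings, chr12:12800000-12999999, had 10, 15 and 10 di-tags and was 1.03 log2 units lower in Sample 3 (difference -1.03, SE 0.47, adjusted p = 0.106, limma). With an offset for the distance class and the same 10, 15 and 10 di-tags, the difference was -0.57 (adjusted p = 0.452, limma). With the window widened by 10 kb on both sides and no such offset, the pair had 25, 43 and 45 di-tags and was called (difference -1.53, adjusted p = 1.89e-05, limma). Over the genome, 200 kb units with starts 200 to 500 kb apart had a median difference of -0.75, and those 2 to 3 Mb apart one of 1.36. The first of these classes includes adjacent units, whose di-tags can span less than 200 kb. It also holds the pair of Mycn with its own surroundings.

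At 10 kb the contacts were thin. Myc had partners in 95 bins of 10 kb and Mycn in 73, of which 8 and 6 held a di-tag in all 3 libraries. Bins seen in a single library numbered 67 for Myc and 57 for Mycn. The 5 Myc bins at least 100 kb away with the highest smallest count began at 61970000, 61980000, 61990000, 62070000 and 62160000, between 140 and 330 kb downstream, and each had 1 to 3 di-tags per library and 5 in sum. For Mycn the bin at 13170000 had 1, 1 and 2 di-tags, and those at 12780000 and 13080000 had 1 in each library. The Myc bins that recurred in all libraries thus again lay on the Pvt1 side, while those of Mycn lay on both sides. The fullest recurring Mycn bin, at 12910000 on the lower side and 10 kb from the window, had 7, 4 and 3 di-tags. It also had many ends from all di-tags, 496, 444 and 476. The fullest recurring Myc bin, at 61910000, had 4, 4 and 3 di-tags and 289, 148 and 145 ends.

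The stretch of chromosome 15 from 63.4 to 63.6 Mb (mm9), in which blood enhancers of Myc have been placed, begins 1570 kb downstream of the window. It had 5 Myc di-tags in Sample 3, 4 in Sample 4 and 2 in Sample 5. As a share of the partners within 3 Mb this was 6.76% (2.23 to 15.1%), 7.02% (1.95 to 17.0%) and 4.26% (0.52 to 14.5%), with overlapping intervals (adjusted p = 1 for Sample 3 against Sample 4 and 0.865 against Sample 5, Fisher's exact test). As a pair of 200 kb units it differed by -0.10 log2 units between Sample 3 and the other libraries (SE 0.80, 95% interval -1.68 to 1.47, adjusted p = 0.927, limma), and by -1.07 with an offset for the distance class (adjusted p = 0.404, limma). No difference was detectable at this depth, and the interval leaves room for changes of over 2-fold in either direction.

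The stretch held more Myc di-tags than any other 200 kb bin at a like distance in Samples 3 and 4, but not in Sample 5. Of all Myc di-tags with a partner at 1 to 3 Mb, the stretch took 5 of 20 in Sample 3, 4 of 9 in Sample 4 and 2 of 8 in Sample 5, in sum 11 of 37 (29.7%, 15.9 to 47.0%). It was 1 of 18 bins of 200 kb that lay wholly 1 to 3 Mb from the window. No other of these bins had over 2 di-tags in Sample 3 or over 1 in Sample 4, while 1 other bin had 3 in Sample 5, and over the libraries the next bin held 4. The stretch had 1143, 1198 and 1167 ends from all di-tags, against a median of 1170, 1284 and 1341 in the other 1 to 3 Mb bins of both sides. The bins directly beside it had fewer, with 1049, 1074 and 1156 ends on the near side and 511, 619 and 624 on the far side. Its di-tags were scattered, since each of its 4 bins of 50 kb had 2 or 3 in sum and no 10 kb bin had over 2. These bins were compared after their values were seen, and no test was made.

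**Figure D5:**
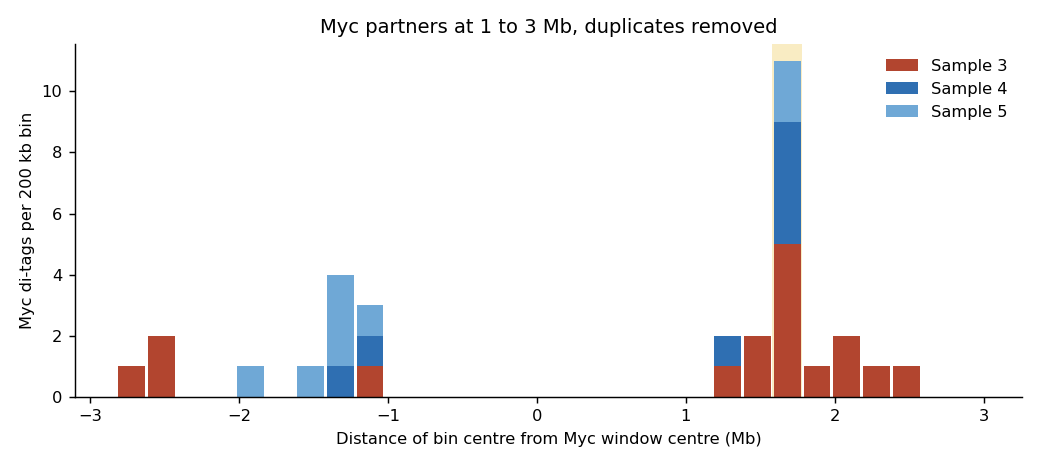
Number of Myc di-tags (vertical axis, stacked by library) in each 200 kb bin that lay wholly 1 to 3 Mb from the Myc window, by the distance of the bin centre in Mb. The shaded bin is the distal stretch, with 5, 4 and 2 di-tags from Samples 3, 4 and 5, and the next highest bin has 4 in all.

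Myc and Mycn lie on different chromosomes, and no di-tag joined their windows. The count was 0 of the 239 trans di-tags of Myc in Sample 3, which allows a share of up to 1.26%, 0 of 145 in Sample 4, up to 2.07%, and 0 of 152 in Sample 5, up to 1.97%. A contact between the genes below these limits would not have been detected.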

How the data were processed

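CHi-C di-tags were taken from the lists the authors deposited for Samples 3, 4 and 5. The lists hold no score or level (other than positions): each line is 1 di-tag with chromosome, position and strand of both reads. Per the labels the build is mm9 and Bowtie 1.1.0 was named. The authors truncated, mapped and filtered reads with HiCUP and removed duplicates, which keeps 1 copy per di-tag.

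Lines were counted with Python 3.11.15 and numpy 2.4.6. Shares carry exact 95% Clopper-Pearson intervals and two-sided Fisher's exact tests (scipy 1.17.1) with Benjamini-Hochberg adjustment over 27 tests. This family includes the share beyond 3 Mb, which was added after seeing the data. Numbers of di-tags per unit over the genome were tested with limma 3.58.1 (voom, R 4.3.3), scaled by trimmed means of ratios, with Sample 3 against Samples 4 and 5, a minimum of 10 di-tags per pair and an adjusted p under 0.05. A count model had been planned but was not run, and limma was used in its place. The files hold no column of counts, but the lines counted per unit are whole numbers. The code was tested on simulated data. The members, windows and lists were chosen with earlier results of these data known. The bins named were the 5 of 50 kb with most di-tags at least 50 kb away, those called, those of the distal stretch, and the 5 of 10 kb at least 100 kb away with the highest smallest count. The single spread estimate comes from 2 libraries that may be technical replicates. Genes of the Myc network were not analysed here, as their mm9 positions were not at hand.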

Additional observations from a re-analysis of the deposited data

How the results depend on the processing

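Of 87 comparisons of a main result with an alternative, 66 kept their direction and side of the threshold, moved by less than the spread, or kept their number of called bins. Some could hardly come out otherwise, so the number 66 does not measure stability. For log2 values without Sample 4 or Sample 5, the spread came from those same libraries. Few bins of the windows could be called, and without a filter 0 of 1096211 pairs of 50 kb units were called over the genome. The window excess in Sample 3 stayed past the threshold with duplicates retained and with widened windows, and against single libraries it ran from 1.00 to 1.11 log2 units for Myc and from 1.13 to 1.31 for Mycn. The cause of the changes below was not tested. Differences here are Sample 3 minus the mean of Samples 4 and 5, in percentage points. With duplicates retained, the share beyond 3 Mb differed by 23.3 for Myc and 6.92 for Mycn, and the higher-side share by 16.1 and -6.55. The 1 to 3 Mb share of Myc then differed by 14.1 and the share within 3 Mb of Mycn by -18.5. In these lists 1 of 14 Mycn bins of 50 kb was called, against 15.2% of 441408 pairs over the genome. It began at 12000000 and had 24, 0 and 0 copies of what was 1 di-tag. Of 200 kb pairs, 1 of 6 of Mycn was called with widened windows (12800000), against 19.1% over the genome. With duplicates retained, 1 of 14 of Myc was called, at 60400000 on the lower side (0, 13 and 11 copies), against 8.14%. That pair was also the 1 of 25 called without a filter (0, 1 and 3 di-tags), against 10.9%. The counts of called 200 kb pairs were added after seeing the data.

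Leaving out Sample 4 or Sample 5 leaves only the Fisher's exact test against the other. The share within 3 Mb differed by -9.29 to -4.60 for Myc and -12.6 to -8.05 for Mycn, and passed the threshold without Sample 5. The share beyond 3 Mb differed by 8.37 to 14.7 for Mycn, past the threshold without Sample 4, and the 1 to 3 Mb share of Mycn by 9.55 to 16.7. Without Sample 5 the latter passed at an adjusted p of 0.0461, the same Fisher's exact test of Sample 3 against Sample 4 as in the report, adjusted over fewer tests. The stretch share differed by -0.26 to 2.50 and its log2 value ran from -0.34 to 0.29. With widened windows the Myc share within 3 Mb differed by -2.08 and the Mycn share beyond 3 Mb by 11.7, past the threshold. The Mycn higher-side share then differed by 8.62. With the original window it differed by -1.61, and by 5.03 among partners at least 50 kb away. Over all viewpoint di-tags the stretch share differed by -0.22. Its log2 value was -1.07 with an offset for the distance class, 0.034 without a filter and 0.18 with an offset for the cis di-tags of both units. By class, the Mycn near difference was -0.090 with duplicates retained and -0.023 with widened windows, and its far difference -0.11 and 0.020. The planned Wald test was not run. No paired analysis was possible because the replicate numbers follow accession order and 1 group has a single library. Depth limits the small bins: 4 of 51 Myc bins and 1 of 42 Mycn bins of 50 kb held enough di-tags to test, and 1 of 95 and 1 of 73 of 10 kb.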
